A study of Mus musculus with 23 samples.

Results

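A set of 10 genes of the extracellular matrix and of its main producer, the fibroblast, was followed in RNA of cardiac macrophage preparations: Postn, Tnc, Sparc, Cthrc1, Fn1, Fbn1, Lox, Pdgfra, Dcn and Lum. They were taken by gene name, 10 of the 54532 genes of the count table, and each name matched 1 row. All 10 were among the 16545 genes that passed the filter on low counts. The mice were C57BL/6. S7fl/fl animals carried floxed Smad7 alleles, and Smad7 belongs to the inhibitory Smads, which damp signals of the TGF-beta family. MyS7KO animals carried the same floxed alleles together with LyzM-Cre, a Cre recombinase under the lysozyme M promoter, which is active in myeloid cells and not in macrophages alone. Both genotypes were littermates, so the floxed alleles are shared by every group. Poly(A) RNA was sequenced from cardiac cells without Ly6G and with CD11b, sorted on magnetic beads, from hearts at baseline and 3 or 7 days after permanent ligation of the left anterior descending coronary artery. The question the design addresses is what the loss of Smad7 in myeloid cells changes after an infarct. Age and sex are not given in the labels, and separate hearts are not stated, so a p-value measures only how these libraries scatter, which may be partly technical.

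Matricellular proteins, such as periostin (Postn), tenascin C (Tnc), osteonectin (Sparc) and Cthrc1, are secreted into the matrix and act on cells more than they bear load. Fibronectin (Fn1) and fibrillin 1 (Fbn1) build fibrils on which other matrix is laid, and lysyl oxidase (Lox) crosslinks collagen and elastin. Decorin (Dcn) and lumican (Lum) are small leucine-rich proteoglycans that bind collagen fibrils, and Pdgfra is the PDGF receptor alpha that marks resident cardiac fibroblasts. After infarction fibroblasts become activated and then myofibroblasts that deposit scar, and macrophages are themselves a known source of fibronectin.

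The genes lie on different chromosomes, apart from Dcn and Lum. On GRCm38 the count table places Dcn at chr10:97479609-97518143 and Lum at chr10:97565128-97572703, both on the plus strand, with 47 kb between the end of Dcn and the start of Lum. Fn1 (ENSMUSG00000026193) spans chr1:71585520-71653200 and Tnc (ENSMUSG00000028364) chr4:63959785-64047015, both on the minus strand, and Postn (ENSMUSG00000027750) spans chr3:54361109-54391037 on the plus strand. Sparc is at chr11:55394500-55423183 and Fbn1 at chr2:125300594-125507993, both on the minus strand. Cthrc1 is at chr15:39076932-39087121 and Pdgfra at chr5:75152292-75198215, both on the plus strand. Strand-specific counting is not stated, and Tnc, Fn1, Fbn1, Lox and Pdgfra each overlap an antisense gene; those with a count row had a median of at most 2 counts per library.

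RefSeq promoter windows on GRCm38.p6 were at hand for 5 of the 10 genes (Fbn1, Pdgfra, Postn, Sparc and Tnc). The 250 bases before a start site are shown for Postn and Tnc, whose RNA was higher after infarction, and for Pdgfra, whose RNA was lower. Letters were searched for a SMAD box (CAGAC), an AP-1 site (TGANTCA) and a TEAD site (CATTCC) on both strands, and for a TATA box (TATAAA) on the gene's strand. Capitals mark the matches. The Postn window is chr3:54360857-54361106 (plus strand), the Tnc window chr4:64047016-64047265 (minus strand) and the Pdgfra window chr5:75152001-75152250 (plus strand).
Postn: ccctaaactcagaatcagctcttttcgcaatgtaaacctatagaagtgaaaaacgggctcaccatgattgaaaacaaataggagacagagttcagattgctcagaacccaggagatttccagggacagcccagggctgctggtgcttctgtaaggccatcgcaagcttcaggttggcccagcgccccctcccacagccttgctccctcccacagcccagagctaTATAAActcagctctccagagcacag
Tnc: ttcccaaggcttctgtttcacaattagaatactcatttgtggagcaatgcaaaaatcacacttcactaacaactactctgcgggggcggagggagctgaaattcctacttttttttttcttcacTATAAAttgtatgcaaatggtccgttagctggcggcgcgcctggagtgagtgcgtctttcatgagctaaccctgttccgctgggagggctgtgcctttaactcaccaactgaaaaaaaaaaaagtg
Pdgfra: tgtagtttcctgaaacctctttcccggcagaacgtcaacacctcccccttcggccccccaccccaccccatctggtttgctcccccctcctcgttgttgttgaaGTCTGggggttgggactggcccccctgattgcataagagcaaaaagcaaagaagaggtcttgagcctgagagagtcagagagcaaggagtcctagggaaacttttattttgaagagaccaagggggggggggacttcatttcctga
The Postn and Tnc windows each held the letters of a TATA box, as 7.59% of 32851 windows of this length did. A match of letters does not show a working site, and the distance to the start was not examined. The Pdgfra window held 1 SMAD box on the reverse strand, a motif found in 42.2% of windows, and the Sparc window held 1 as well. AP-1 letters (6.75% of windows) and TEAD letters (12.6%) were in none of the windows of these 5 genes, and the Fbn1 window held none of the 4 motifs. A second start listed for Postn and a second one for Tnc each had 1 SMAD box in their windows. The second Tnc window, which overlaps the one shown, also held the TATA box letters.

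The libraries numbered 3 S7fl/fl (16.5 to 21.0 M counts) and 3 MyS7KO (16.4 to 18.3 M) at baseline, 5 (15.5 to 20.5 M) and 5 (16.98 to 23.9 M) at day 3, and 3 (18.0 to 19.5 M) and 4 (16.6 to 20.2 M) at day 7. Smad7, the targeted gene, was at 56.4 ± 4.25 CPM (TMM-scaled counts relative to library size, SD, n = 3) in S7fl/fl and 38.0 ± 15.9 (n = 3) in MyS7KO at baseline, 34.7 ± 4.42 and 14.6 ± 3.98 at day 3 (n = 5 each), and 62.5 ± 6.76 (n = 3) and 23.4 ± 7.66 (n = 4) at day 7. Y-linked transcripts were read in all 3 S7fl/fl libraries of day 7 and Xist in all 4 MyS7KO libraries of day 7, so at day 7 genotype cannot be told apart from sex. At baseline Xist was read in 2 S7fl/fl libraries and Y-linked transcripts in 1, and in MyS7KO in 1 and 2. At day 3 the numbers were 2 and 3 in S7fl/fl and 3 and 2 in MyS7KO. The comparisons of times within a genotype thus also differ in sex makeup. S7fl/fl day 3 replicate 4 and MyS7KO day 3 replicate 3 held a minor signal of the other sex, 7.83% and 2.87%. Summed over 12 macrophage markers, none of them at 0, levels were 16240 to 18450 CPM in S7fl/fl and 13030 to 18050 in MyS7KO at baseline, 17670 to 20210 and 15760 to 18070 at day 3, and 25530 to 28170 and 17080 to 22060 at day 7. These sums include Lyz2, the lysozyme M gene, which was lower in MyS7KO at each time. Without Lyz2 they were 10870 to 13310 and 10590 to 14700 CPM at baseline. At day 3 they were then 12260 to 13670 and 12540 to 14770. Summed over 12 fibroblast markers outside the 10 genes, none of them at 0 in a group, levels were 346.8 to 766.9 CPM at baseline, 240.2 to 1077 at day 3 and 1084 to 4232 at day 7. Fibroblast marker RNA was thus read in every library, and in bulk RNA fewer cells of a type and less RNA per cell cannot be told apart.

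At baseline the 10 genes stood in an order led by Sparc and Dcn. On the deposited FPKM scale, which is per gene length and allows genes to be compared, S7fl/fl baseline levels were 90.2 ± 12.3 for Sparc, 61.3 ± 12.7 for Dcn, 31.7 ± 6.49 for Fn1 and 24.9 ± 6.01 for Lum (SD, n = 3). Fbn1 followed at 8.66 ± 0.659, Lox at 4.33 ± 0.621, Postn at 4.13 ± 0.673 and Pdgfra at 3.38 ± 0.787. Tnc (0.285 ± 0.0548) and Cthrc1 (0.230 ± 0.0406) were lowest. The ranges of Fn1 and Lum overlapped, as did those of Lox and Postn, of Postn and Pdgfra, and of Tnc and Cthrc1. At day 3 the order was led by Fn1 at 472.9 ± 148.9 FPKM, followed by Sparc at 78.0 ± 27.2 (n = 5). Postn, Dcn, Tnc, Fbn1, Lox, Cthrc1 and Lum then lay between 6.19 and 2.75, each overlapping the next, and Pdgfra was last at 0.571 ± 0.362. At day 7 Fn1 (251.5 ± 84.9) and Sparc (120.5 ± 63.3) overlapped and Postn came next at 36.0 ± 17.6 (n = 3). Dcn, second at baseline, was then at 12.8 ± 7.70, beside Cthrc1 at 14.9 ± 9.34 and Lox at 13.6 ± 5.07. In MyS7KO day 7 libraries the leading genes were again Fn1 (206.6 ± 27.0), Sparc (187.5 ± 81.2) and Postn (58.2 ± 28.3, n = 4).

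**Figure D1:**
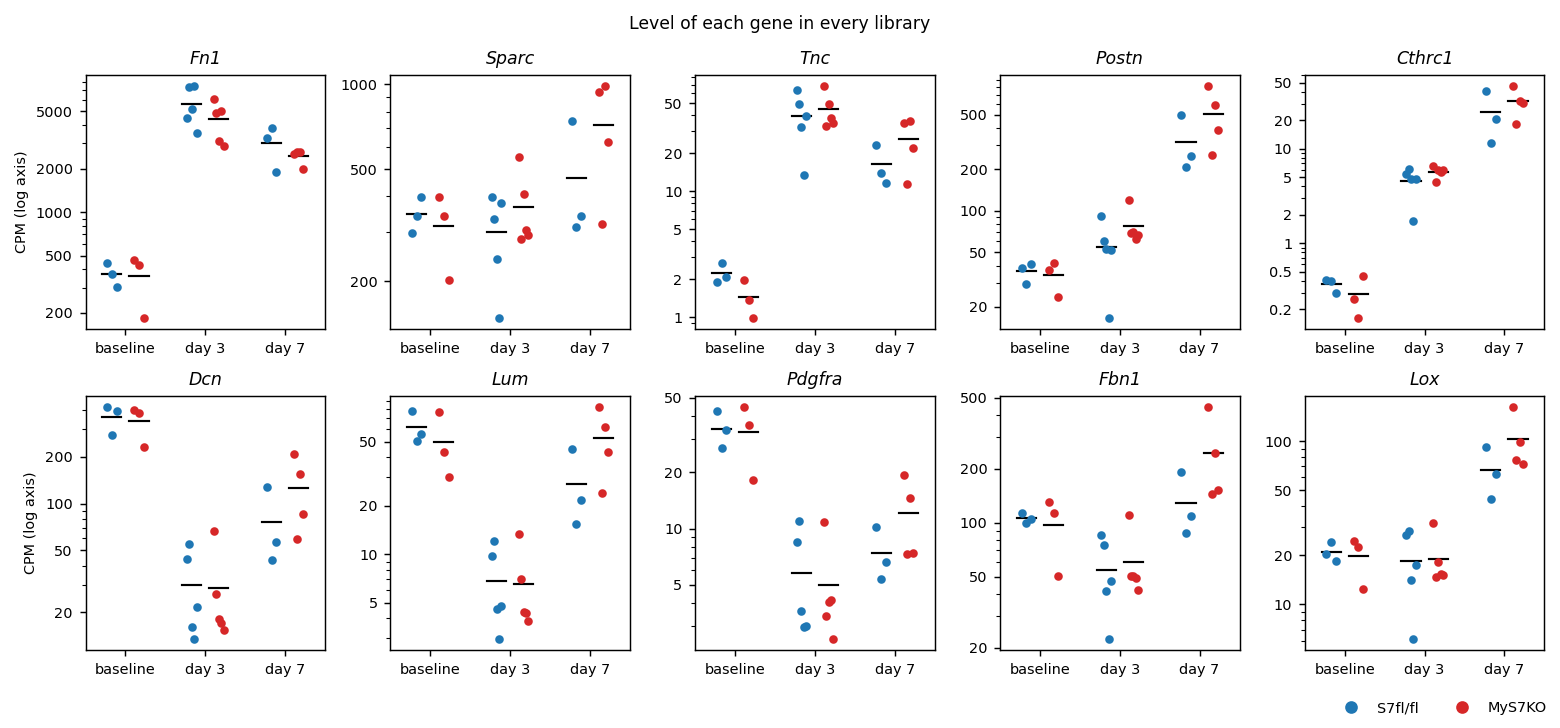
CPM (library-scaled counts, log axis with its own scale in each panel) of each of the 10 genes in each library at baseline, day 3 and day 7. Blue points are S7fl/fl, red points MyS7KO, each point is 1 library and the black line is the group mean. Fn1, Tnc and Cthrc1 are higher at both later times than at baseline, Dcn, Lum and Pdgfra are lower at day 3, and Postn and Lox are high at day 7.

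At 3 days after infarction, 3 of the 10 genes had risen in S7fl/fl and 3 had fallen. Fn1, Tnc and Cthrc1 rose, and Dcn, Lum and Pdgfra fell. Among all genes tested 29.9% were called higher and 34.1% lower in that comparison, so these shares are near the background. In MyS7KO 4 rose, the same 3 with Postn added, and Dcn, Lum and Pdgfra fell, against 30.7% of all genes called higher and 35.2% lower. A gene was called where edgeR's quasi-likelihood test gave a Benjamini-Hochberg adjusted p under 0.05 over all genes tested. The median log2 change of the 10 genes was -0.19 in S7fl/fl and 0.09 in MyS7KO, beside -0.06 and -0.10 over all genes tested.

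By day 7 the balance was toward higher levels. In S7fl/fl 5 genes were above baseline (Fn1, Tnc, Cthrc1, Postn and Lox) and 2 below it (Dcn and Pdgfra), against 24.8% and 25.4% of all genes called higher and lower. In MyS7KO 7 were above baseline, with Sparc and Fbn1 in addition, and the same 2 below it, against 22.2% and 21.8%. These 9 calls in MyS7KO came to 5 with no low-count filter, where Sparc, Fbn1, Dcn and Pdgfra were lost, and to 5 to 7 with 1 library left out. The median log2 change from baseline was 1.05 in S7fl/fl and 1.85 in MyS7KO, with -0.02 and -0.01 over all genes tested. From day 3 to day 7, Postn, Cthrc1, Lox, Fbn1 and Lum rose and Fn1 and Tnc fell in S7fl/fl, where 11.5% of all genes were called higher and 10.1% lower. In MyS7KO 8 genes rose and Fn1 alone fell over the same days, against 20.5% and 19.1%. With no low-count filter, or in a fit of only the groups compared, the S7fl/fl calls of Tnc, Fn1 and Fbn1 between the days were lost. In MyS7KO those of Fn1 (edgeR adjusted p = 0.0614), Sparc (0.0873) and Pdgfra (0.0822) were lost with no low-count filter, which left 6 of 9. The median log2 change between the days was 1.29 in S7fl/fl and 2.08 in MyS7KO, with 0.01 and 0.08 over all genes tested. The comparisons with baseline share the baseline libraries, and the interaction tests of genotype and time are given after the genotype comparison.

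**Figure D2:**
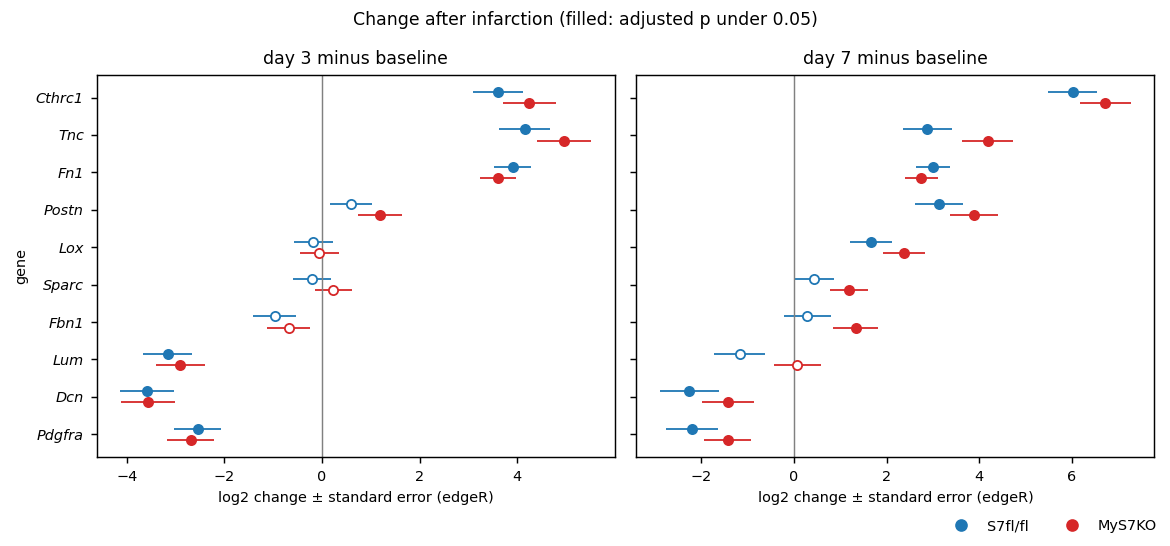
Log2 change from baseline (horizontal axis, bars are the standard error) of each of the 10 genes at day 3 and day 7 in S7fl/fl and MyS7KO. Filled symbols have an edgeR adjusted p under 0.05 and open symbols do not; Dcn, Lum and Pdgfra lie left of 0 at day 3 and Fn1, Tnc and Cthrc1 right of it.

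Fn1 had the highest mean FPKM of the 10 in each of the 4 groups after infarction. In S7fl/fl it stood at 446.4, 374.4 and 301.2 CPM at baseline, at 4501, 7402, 5159, 7466 and 3522 at day 3 and at 3284, 3822 and 1883 at day 7. In MyS7KO it stood at 464.5, 431.4 and 185.4 CPM at baseline, at 6121, 4842, 3113, 4980 and 2868 at day 3 and at 2536, 2617, 2588 and 1976 at day 7. Every library after infarction was above every baseline library, with no overlap in either genotype. The log2 change at day 3 was 3.91 (SE 0.37, edgeR adjusted p = 2.33e-08) in S7fl/fl and 3.6 (SE 0.37, edgeR adjusted p = 5.02e-08) in MyS7KO. At day 7 it was 3.00 (SE 0.37) and 2.75 (SE 0.36), with edgeR adjusted p of 1.95e-06 and 4.01e-06. Fn1 made up 22.3 to 30.7% of the counts of the 10 genes in the baseline libraries of both genotypes, 83.2 to 97.0% at day 3 and 48.1 to 83.7% at day 7. All 10 genes together took 0.0833 to 0.177% of a library's counts at baseline and 0.254 to 0.760% after infarction.

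The decline of Fn1 between day 3 and day 7 was smaller than its rise. The log2 change was -0.90 (SE 0.32, edgeR adjusted p = 0.0478) in S7fl/fl and -0.85 (SE 0.29, edgeR adjusted p = 0.0235) in MyS7KO, and the groups overlapped in S7fl/fl only. In S7fl/fl the edgeR adjusted p was 0.101, 0.0555 and 0.102 without day 3 replicates 2, 3 and 4, and 0.0989 and 0.218 without day 7 replicates 2 and 4. In MyS7KO it was 0.0643 without day 3 replicate 1 and 0.0665 without day 7 replicate 5.

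Tnc, a matricellular glycoprotein that is sparse in the healthy adult heart and appears at sites of injury, was near the bottom of the range at baseline. S7fl/fl libraries held 1.90, 2.72 and 2.095 CPM at baseline, 63.4, 49.0, 32.4, 13.5 and 39.4 at day 3, and 23.5, 13.97 and 11.6 at day 7. MyS7KO libraries held 1.96, 1.36 and 0.991 CPM at baseline, 68.3, 32.8, 49.3, 38.1 and 34.7 at day 3, and 35.0, 11.5, 35.9 and 22.1 at day 7. No library after infarction reached down to the baseline range, while day 3 and day 7 overlapped in both genotypes. The log2 change at day 3 was 4.15 (SE 0.52, edgeR adjusted p = 1.57e-06) in S7fl/fl and 4.95 (SE 0.56, edgeR adjusted p = 3.62e-07) in MyS7KO. At day 7 it was 2.88 (SE 0.53, edgeR adjusted p = 0.000207) and 4.18 (SE 0.56, edgeR adjusted p = 8.4e-06). Tnc fell from day 3 to day 7 in S7fl/fl, by a log2 change of -1.27 (SE 0.43, edgeR adjusted p = 0.0398), and the change in MyS7KO, -0.77 (SE 0.38, edgeR adjusted p = 0.113), did not pass. The call in S7fl/fl rested on single libraries: the edgeR adjusted p of Tnc was 0.0935, 0.0727 and 0.0571 without day 3 replicates 1, 2 and 5, and 0.119 and 0.157 without day 7 replicates 3 and 4.

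Cthrc1, a secreted protein linked to collagen deposition and known from activated cardiac fibroblasts, had the largest change of the 10 at day 7. At baseline it had 10, 7 and 7 counts in the S7fl/fl libraries and 5, 3 and 9 in the MyS7KO libraries, or 0.164 to 0.446 CPM over both. At day 3 S7fl/fl stood at 5.44, 6.02, 4.77, 1.71 and 4.74 CPM and MyS7KO at 6.56, 4.44, 5.90, 5.61 and 5.93. At day 7 S7fl/fl stood at 40.7, 11.4 and 20.5 CPM and MyS7KO at 45.8, 18.0, 32.2 and 30.2. The 3 times formed 3 ranges without overlap in each genotype. Log2 changes from baseline were 3.6 (SE 0.52, edgeR adjusted p = 4.96e-06) and 4.25 (SE 0.55, edgeR adjusted p = 1.09e-06) at day 3 in S7fl/fl and MyS7KO, and 6.01 (SE 0.54, edgeR adjusted p = 2.78e-08) and 6.72 (SE 0.55, edgeR adjusted p = 9.34e-09) at day 7. Between the later times Cthrc1 rose by 2.41 (SE 0.35, edgeR adjusted p = 4.89e-05) and 2.47 (SE 0.33, edgeR adjusted p = 6.43e-06) on the log2 scale. Without S7fl/fl day 7 replicate 2, the highest of its group, the S7fl/fl values for Cthrc1 at day 7 were 5.41 from baseline and 1.81 from day 3.

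Postn, a matricellular protein of activated fibroblasts, rose late. S7fl/fl libraries held 38.7, 29.4 and 40.9 CPM at baseline, 92.4, 60.3, 52.6, 16.7 and 52.1 at day 3, and 494.6, 210.2 and 252.7 at day 7. MyS7KO libraries held 37.2, 41.9 and 23.8 CPM at baseline, 119.8, 69.1, 70.2, 62.5 and 67.2 at day 3, and 808.7, 252.9, 588.3 and 384.6 at day 7. Day 7 was above all other libraries in both genotypes, and S7fl/fl day 3 replicate 4 lay below the S7fl/fl baseline. The day 3 log2 change of 0.59 (SE 0.44, edgeR adjusted p = 0.245) in S7fl/fl did not pass, and that of 1.18 (SE 0.45, edgeR adjusted p = 0.0268) in MyS7KO did. The MyS7KO call was lost without baseline replicate 3 (0.98, edgeR adjusted p = 0.11) and without day 3 replicate 1 (0.97, edgeR adjusted p = 0.0661). At day 7 the log2 change from baseline was 3.13 (SE 0.51, edgeR adjusted p = 6.55e-05) in S7fl/fl and 3.89 (SE 0.52, edgeR adjusted p = 8.96e-06) in MyS7KO. Between day 3 and day 7 it was 2.54 (SE 0.42, edgeR adjusted p = 0.000266) and 2.71 (SE 0.40, edgeR adjusted p = 3.17e-05).

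Sparc, which binds collagen and is made by many cells including endothelium, had no called change in S7fl/fl. Its S7fl/fl levels were 297.2, 341.1 and 399.0 CPM at baseline, 398.6, 332.6, 240.5, 148.7 and 377.7 at day 3, and 742.1, 312.5 and 339.7 at day 7. Its MyS7KO levels were 396.7, 340.9 and 201.9 CPM at baseline, 551.7, 281.9, 409.6, 304.4 and 292.9 at day 3, and 935.4, 319.6, 984.8 and 621.5 at day 7. All 3 times overlapped in both genotypes. In S7fl/fl the log2 change from baseline was -0.21 (SE 0.38, edgeR adjusted p = 0.655) at day 3 and 0.43 (SE 0.43, edgeR adjusted p = 0.429) at day 7, neither of which passed. In MyS7KO it was 0.23 (SE 0.39, edgeR adjusted p = 0.607) at day 3 and 1.19 (SE 0.41, edgeR adjusted p = 0.0258) at day 7. That last call ended without baseline replicate 2 (edgeR adjusted p = 0.0518), baseline replicate 3 (0.109), day 7 replicate 1 (0.0622) or day 7 replicate 4 (0.0594), with no low-count filter (0.053) and in the fit of only the groups compared (0.0738). The change from day 3 to day 7 in MyS7KO, 0.96 (SE 0.35, edgeR adjusted p = 0.0364), likewise missed the threshold without day 3 replicates 2, 3, 4 and 5 (0.0775, 0.0502, 0.0728 and 0.0774) and without day 7 replicates 1 and 4 (0.115 and 0.118).

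Lox, the lysyl oxidase gene on chromosome 18, changed late. It stood at 20.4, 24.2 and 18.5 CPM in S7fl/fl at baseline, 26.7, 28.1, 14.03, 6.16 and 17.5 at day 3, and 92.8, 44.3 and 63.0 at day 7. In MyS7KO it stood at 24.6, 22.4 and 12.4 CPM at baseline, 31.6, 14.8, 18.2, 15.5 and 15.1 at day 3, and 161.6, 76.99, 99.4 and 72.3 at day 7. The day 7 libraries were above all others, and baseline and day 3 overlapped. Lox changed by -0.18 (SE 0.40, edgeR adjusted p = 0.713) and -0.05 (SE 0.41, edgeR adjusted p = 0.912) on the log2 scale at day 3, which did not pass. It rose by 1.67 (SE 0.45, edgeR adjusted p = 0.00518) and 2.38 (SE 0.45, edgeR adjusted p = 0.000334) at day 7, in S7fl/fl and MyS7KO. Between day 3 and day 7 Lox rose by 1.85 (SE 0.39, edgeR adjusted p = 0.0022) and 2.43 (SE 0.37, edgeR adjusted p = 4.56e-05).

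Fbn1 stood at 114.1, 99.1 and 105.1 CPM in S7fl/fl at baseline, 85.2, 74.7, 41.3, 22.5 and 47.4 at day 3, and 191.8, 88.1 and 108.9 at day 7. In MyS7KO it stood at 130, 112.8 and 50.3 CPM at baseline, 110.6, 50.3, 50.5, 49.4 and 42.3 at day 3, and 442.9, 144.5, 244.7 and 153.3 at day 7. Every S7fl/fl day 3 library was below every S7fl/fl baseline library, with a log2 change of -0.97 (SE 0.44, edgeR adjusted p = 0.0632) that did not pass. It did pass without day 3 replicate 1 (edgeR adjusted p = 0.031) or replicate 2 (0.0484), in the fit of only the groups compared (0.0448), with sex as a covariate (0.0371) and with limma on log2(FPKM + 1) (0.0345). In MyS7KO the day 3 change was -0.69 (SE 0.44, edgeR adjusted p = 0.18), and it passed with limma-voom (-1.11, adjusted p = 0.00881) and without day 3 replicate 1 (0.0473). At day 7 the change from baseline was 0.29 (SE 0.50, edgeR adjusted p = 0.655) in S7fl/fl and 1.33 (SE 0.49, edgeR adjusted p = 0.0325) in MyS7KO. The MyS7KO call was lost without baseline replicates 2 and 3 (0.0551 and 0.134), without day 7 replicate 1 (0.129) and with no low-count filter (0.0641). From day 3 to day 7 Fbn1 rose in MyS7KO by 2.02 (SE 0.42, edgeR adjusted p = 0.000778) on the log2 scale. In S7fl/fl its rise of 1.26 (SE 0.44, edgeR adjusted p = 0.0488) was lost without day 3 replicates 3, 4 and 5 (0.0917, 0.0968 and 0.0874) and without day 7 replicates 2 and 4 (0.268, with a log2 change of 0.86, and 0.0731).

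Dcn, the proteoglycan that was second only to Sparc at baseline, fell furthest. S7fl/fl libraries held 416.9, 276.1 and 392.6 CPM at baseline, 44.2, 55.4, 16.0, 13.5 and 21.7 at day 3, and 127.4, 43.1 and 56.8 at day 7. MyS7KO libraries held 399.6, 383.2 and 233.0 CPM at baseline, 66.2, 26.2, 18.2, 17 and 15.3 at day 3, and 207.1, 59.4, 155.1 and 85.3 at day 7. No library after infarction reached the baseline range of either genotype. The day 3 log2 change was -3.58 (SE 0.56, edgeR adjusted p = 1.89e-05) in S7fl/fl and -3.56 (SE 0.55, edgeR adjusted p = 1.91e-05) in MyS7KO. At day 7 it was -2.25 (SE 0.64, edgeR adjusted p = 0.00658) and -1.42 (SE 0.57, edgeR adjusted p = 0.0496). Without S7fl/fl day 7 replicate 2 the S7fl/fl value of Dcn was -2.86. The MyS7KO call at day 7 was lost without baseline replicates 1 and 2 (0.129 and 0.122), without day 7 replicates 3, 4 and 5 (0.132, 0.064 and 0.118), with no low-count filter (0.119) and with sex as a covariate (0.151). From day 3 to day 7 Dcn rose in MyS7KO by 2.14 (SE 0.51, edgeR adjusted p = 0.00275), and its S7fl/fl change of 1.33 (SE 0.54, edgeR adjusted p = 0.0908) did not pass, although it did without day 3 replicate 2 (0.0446) and with limma-voom (0.0495).

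Lum, which lies next to Dcn on chromosome 10, fell with it at day 3 and recovered further. S7fl/fl libraries held 77.7, 50.6 and 55.9 CPM at baseline, 9.73, 12.04, 4.57, 2.98 and 4.80 at day 3, and 44.9, 15.5 and 21.6 at day 7. MyS7KO libraries held 76.3, 43.2 and 30.1 CPM at baseline, 13.4, 7.01, 4.35, 4.30 and 3.84 at day 3, and 81.8, 23.8, 61.4 and 43.3 at day 7. The MyS7KO day 7 range enclosed its baseline range, and the S7fl/fl day 7 libraries stayed under theirs. Lum fell at day 3 by 3.16 (SE 0.50, edgeR adjusted p = 2.3e-05) and by 2.91 (SE 0.50, edgeR adjusted p = 5.23e-05) on the log2 scale. At day 7 its change from baseline was -1.17 (SE 0.55, edgeR adjusted p = 0.0855) in S7fl/fl and 0.08 (SE 0.51, edgeR adjusted p = 0.914) in MyS7KO. The S7fl/fl value passed without day 7 replicate 2 (edgeR adjusted p = 0.029), in the fit of only the groups compared (0.0327) and with limma-voom (0.0148). From day 3 to day 7 Lum rose by 2.00 (SE 0.50, edgeR adjusted p = 0.00755) in S7fl/fl and by 2.98 (SE 0.48, edgeR adjusted p = 7.23e-05) in MyS7KO. The former did not pass without S7fl/fl day 7 replicate 2 (1.44, edgeR adjusted p = 0.0873).

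Pdgfra, the receptor, fell at day 3 and stayed low. S7fl/fl libraries held 42.3, 26.8 and 33.5 CPM at baseline, 8.45, 11.01, 3.63, 2.98 and 3.03 at day 3, and 10.2, 5.37 and 6.63 at day 7. MyS7KO libraries held 44.4, 35.5 and 18.1 CPM at baseline, 10.9, 3.42, 4.05, 4.17 and 2.58 at day 3, and 19.4, 7.28, 14.5 and 7.40 at day 7. Only MyS7KO day 7 replicate 1, at 19.4, reached into a baseline range after infarction. Pdgfra fell by 2.55 (SE 0.49, edgeR adjusted p = 0.000156) and by 2.69 (SE 0.49, edgeR adjusted p = 9.25e-05) on the log2 scale at day 3. At day 7 the change was -2.20 (SE 0.57, edgeR adjusted p = 0.00345) in S7fl/fl and -1.43 (SE 0.50, edgeR adjusted p = 0.0276) in MyS7KO. The latter was lost without baseline replicates 1 and 2 (0.124 and 0.0733), without day 7 replicates 3 and 5 (0.0751 and 0.0798), with no low-count filter (0.0719) and with sex as a covariate (0.0843). Between day 3 and day 7 the change of Pdgfra was 0.35 (SE 0.51, edgeR adjusted p = 0.682) in S7fl/fl and 1.26 (SE 0.47, edgeR adjusted p = 0.0374) in MyS7KO. This MyS7KO call was lost without day 3 replicates 2, 3, 4 and 5 (0.0809, 0.0744, 0.0704 and 0.086) and without day 7 replicates 1 and 4 (0.154, with a log2 change of 0.94, and 0.0783).

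On the log2(FPKM + 1) scale, which understates changes of low genes, the same comparisons were smaller for the genes of lowest level. Tnc came to 2.12 and 1.22 at day 3 and day 7 in S7fl/fl and to 2.47 and 1.80 in MyS7KO. Cthrc1 came to 1.58 and 3.53 in S7fl/fl and to 1.95 and 4.06 in MyS7KO. Pdgfra came to -1.49 and -1.34 in S7fl/fl and to -1.48 at day 3 in MyS7KO, and its MyS7KO change between day 3 and day 7 to 0.54.

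Apart from Fn1, the genes tended to move together within a group, though not in S7fl/fl at baseline. There replicates 1, 2 and 3 were the highest in 5, 2 and 2 of the 9 other genes. In S7fl/fl at day 3 the highest place was split between replicates 1 and 2, with 4 and 5 genes. S7fl/fl day 3 replicate 4 was the lowest of its group in 9 of 9 genes other than Fn1 and the highest in Fn1, and it also held the largest minor sex signal. MyS7KO day 3 replicate 1 was the highest of its group in 9 of 9 and in Fn1. S7fl/fl day 7 replicate 2 was the highest in 9 of 9, MyS7KO baseline replicate 3 the lowest in 8 of 9, and MyS7KO day 7 replicate 3 the lowest in 8 of 9 and the highest in Fn1. With the 6 group means removed, the Pearson correlation of log2 CPM over the 23 libraries was 0.469 to 0.964 (median 0.838) in the 36 pairs of genes without Fn1, and -0.30 to 0.493 in the 9 pairs with Fn1. Among the 36, the pairs with Cthrc1 ran only from 0.469 (with Pdgfra) to 0.731 (with Postn). These libraries share cells, depth and scaling for every gene, and the correlations are a description.

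The summed level of the 12 other fibroblast markers moved with the same libraries. It was 753.9, 567.9 and 582.9 CPM in the S7fl/fl baseline libraries and 766.9, 587.7 and 346.8 in those of MyS7KO. At day 3 it was 994.9, 735.4, 502.1, 240.2 and 562.4 in S7fl/fl and 1077, 628.4, 643.5, 592.9 and 492.7 in MyS7KO, and at day 7 it was 2888, 1084 and 1588 in S7fl/fl and 4232, 1526, 3573 and 2428 in MyS7KO. The libraries named above as lowest or highest for the 9 genes were thus also the lowest or highest of their groups for these markers. This did not hold for every library: S7fl/fl day 3 replicate 2 was highest in 5 of 9 genes but stood below replicate 1 in this sum. The part of fibroblast RNA in the changes of the 10 genes was not tested. Taken singly, the markers did not move as a block: Col1a1 went from a mean of 82.6 CPM at baseline to 154.5 at day 3 and 498.3 at day 7 in S7fl/fl, and Col3a1 from 182.0 to 264.9 and 733.2. Dpt, Pi16 and Clec3b went from 69.1, 60.3 and 30.8 CPM to 5.41, 12.1 and 0.951 at day 3 and 17.2, 23 and 2.38 at day 7. Dcn, Lum and Pdgfra thus had their lowest means at day 3 along with Dpt, Pi16 and Clec3b, while Postn and Lox had their highest at day 7 along with the collagens. In S7fl/fl Tcf21, Fap and Ogn were also lowest at day 3, and Col1a2 was highest at day 7. Mfap5 was both, with means of 16.6, 6.35 and 30.3 CPM over the 3 times. Ddr2 (26.8, 6.93 and 6.16) and Thy1 (6.87, 5.12 and 4.51) were lowest at day 7 in S7fl/fl.

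**Figure D3:**
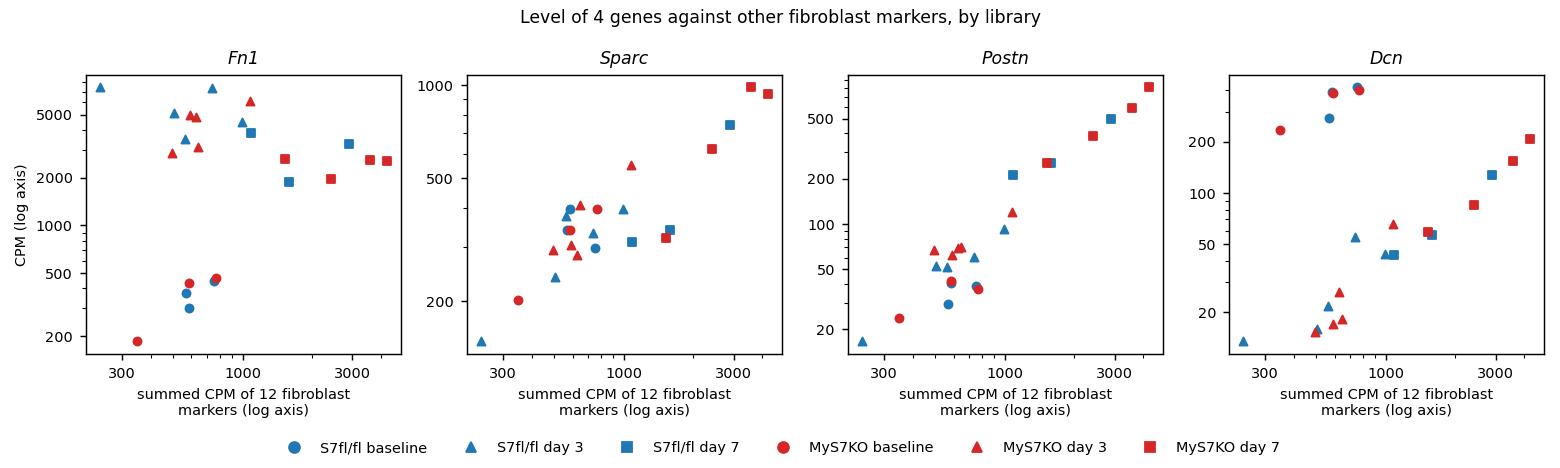
CPM of Fn1, Sparc, Postn and Dcn (vertical, log axis) against the summed CPM of 12 other fibroblast markers (horizontal, log axis) in each of 23 libraries; shapes are times and colours genotypes. Postn and Sparc are higher in libraries with a higher sum, Dcn does so along 2 separate bands (baseline above, days 3 and 7 below), and Fn1 shows no such order at day 3 or day 7.

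Markers of vessel cells moved as well. The 10 endothelial markers, none at 0, summed to 1364 to 2857 CPM at baseline, 386.0 to 961.6 at day 3 and 228.7 to 1494 at day 7. The 8 mural cell markers, none at 0, summed to 841.2 to 1462 CPM at baseline, 114.9 to 223.9 at day 3 and 62.2 to 521.5 at day 7. At day 3 in S7fl/fl all 10 endothelial and all 8 mural markers were called lower. Markers of other cells fell too at that time: 10 of 10 of cardiomyocytes, 7 of 7 of B cells, 6 of 7 of NK cells (1 was higher), 5 of 5 of Schwann cells, 4 of 4 of T cells and 2 of 5 of mesothelium among those tested, with 1 higher and 1 lower of 2 mast cell markers. Of all genes tested 29.9% were called higher and 34.1% lower in that comparison. The falls of these markers are in the direction of Dcn, Lum and Pdgfra, and their part in these results was not tested. The endothelial sums of MyS7KO at day 7 overlapped those of its baseline. The 10 neutrophil markers summed to 98.6 to 157.8 CPM at baseline and 102.2 to 212.6 after infarction, although 4 of 9 tested were lower and 1 higher at day 3 in S7fl/fl (median -1.48) and 6 lower and 1 higher in MyS7KO (median -2.33). Ly6g, the antigen used for depletion, was at 0 in MyS7KO day 3 and in both day 7 groups.

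The ratio to Dcn in the same library compares 2 genes in the same RNA. On FPKM, Postn was at 0.0622 to 0.0734 of Dcn at baseline over both genotypes, 0.731 to 2.95 at day 3 and 2.55 to 3.27 at day 7. The day 7 ratios of Postn spanned 2.61 to 3.27 in S7fl/fl and 2.55 to 3.03 in MyS7KO, while its CPM spanned 3.20-fold in the latter group. Cthrc1 went from 0.00156 to 0.00702 at baseline to 0.363 to 1.42 at day 3 and 0.760 to 1.32 at day 7. Tnc went from 0.00267 to 0.00739 at baseline to 0.664 to 2.03 at day 3 and then down to 0.127 to 0.243 at day 7. For these 3 genes no later library overlapped baseline in the ratio.

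Lox, Fbn1 and Sparc also gained on Dcn although their own levels at day 3 overlapped or lay under baseline. Lox was at 0.0572 to 0.106 of Dcn at baseline, 0.553 to 1.21 at day 3 and 0.778 to 1.57 at day 7. Fbn1 was at 0.104 to 0.173, 0.649 to 1.40 and 0.725 to 1.17, and Sparc at 1.10 to 1.90, 9.26 to 34.6 and 6.96 to 11.2. The Lum ratio went from 0.269 to 0.455 at baseline to 0.481 to 0.681 at day 3 and 0.840 to 1.21 at day 7, with the 3 times apart. The Pdgfra ratio was 0.0453 to 0.0647 at baseline, 0.0759 to 0.143 at day 3 and 0.0467 to 0.0725 at day 7, so day 3 lay above baseline and day 7 overlapped it. In each gene the 2 genotypes overlapped in this ratio at day 3 and in all but Lum at day 7, where S7fl/fl lay at 0.840 to 0.907 and MyS7KO at 0.942 to 1.21, a difference that was not tested. The share of all genes without overlap in this ratio was not counted. In CPM it was 8.9% of all genes tested at day 7, where the groups are also of opposite sex signal.

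**Figure D4:**
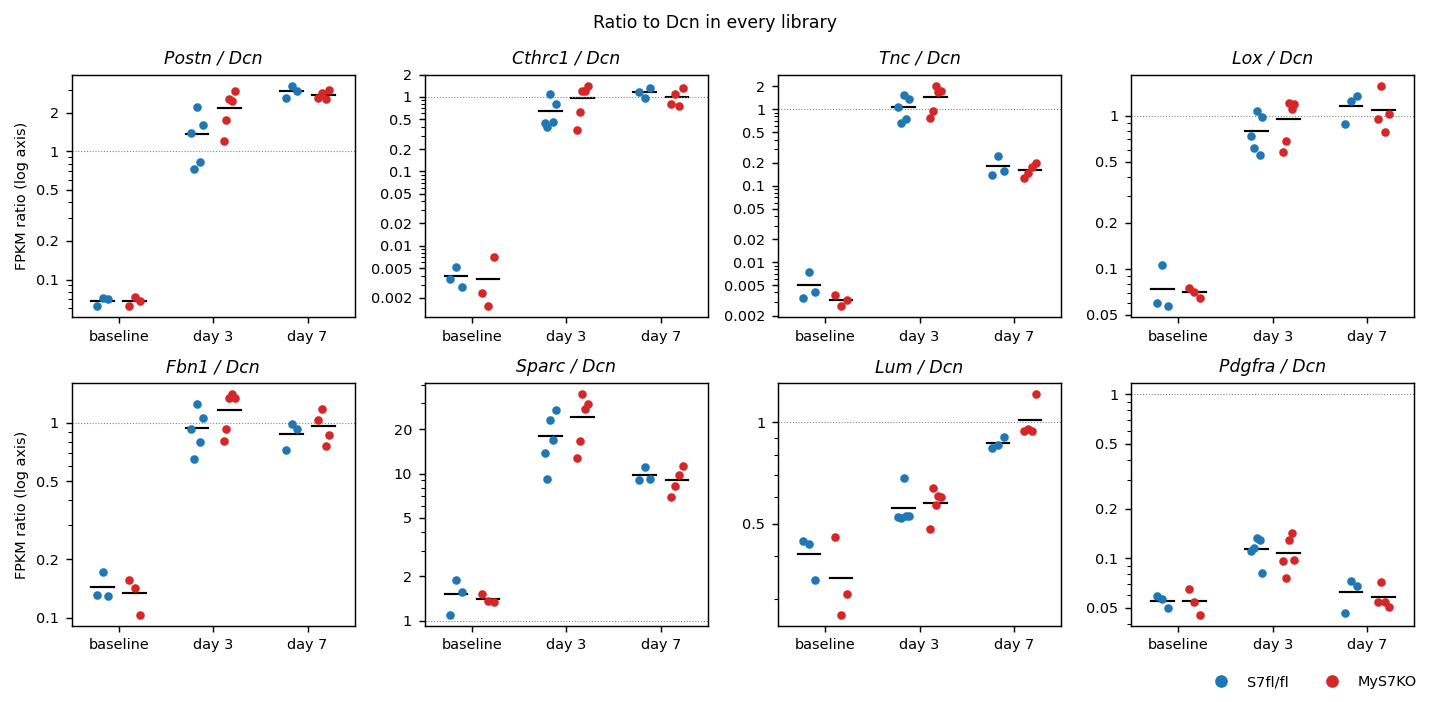
Ratio of the FPKM of 8 genes to that of Dcn in the same library (log axis, own scale in each panel, dotted line at 1) at baseline, day 3 and day 7; blue is S7fl/fl, red MyS7KO, each point 1 library. Lum rises over both steps without overlap. Postn does so in S7fl/fl, while in MyS7KO its day 3 and day 7 ranges overlap. Tnc peaks at day 3, and Pdgfra at day 7 overlaps its baseline range.

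The genes whose pattern over the 23 libraries was most like each member were named by Pearson r of log2 CPM. As the libraries stood, Postn was closest to Col1a2 (r = 0.984) and Col3a1 (0.975), Lox to Col5a2 (0.984) and Ltbp2 (0.983), and Fbn1 to Bgn (0.987) and Mrc2 (0.985). Dcn was closest to Abca8a (0.991) and Naalad2 (0.985), Lum to Islr (0.986) and Col4a5 (0.985), and Pdgfra to Tnxb (0.972) and Nedd9 (0.966). Fn1 was closest to Rai14 (0.989), Ikbke (0.985) and Gpr35 (0.983), Tnc to Hps6 (0.941) and Tm9sf1 (0.940), Cthrc1 to Hvcn1 (0.974), Olfml3 (0.970) and Ms4a7 (0.965), and Sparc to Ptk7 (0.931) and Loxl2 (0.928). Genes that share a time course score high here, so the same was done with the 6 group means removed. Postn was then closest to Thbs2 (0.972) and Aspn (0.962), Sparc to Igfbp7 (0.990), Fbn1 to Bgn (0.970), Lox to Svep1 (0.965), Dcn to Naalad2 (0.966), Lum to Bgn (0.959) and Pdgfra to Col6a3 (0.935). Tnc was closest to Cilp (0.949) and Bmp1 (0.944), Fn1 to Luzp1 (0.895) and Rai14 (0.883), and Cthrc1 to Prkca (0.837) and Maged2 (0.806). Among the 3 closest by both measures were Bgn and Loxl1 for Fbn1, Naalad2 and Abca8a for Dcn and Rai14 for Fn1. So were Col1a2 for Postn, Ltbp2 for Lox and Gfpt2 for Pdgfra, while Tnc, Sparc, Cthrc1 and Lum shared none.

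Among 18 other matricellular genes tested, 4 were higher and 12 lower at day 3 in S7fl/fl and 6 higher and 7 lower at day 7, with medians of -2.05 and 0.74 on the log2 scale. In MyS7KO 4 were higher and 11 lower at day 3 and 9 higher and 7 lower at day 7, with medians of -1.87 and 1.06. Spp1 (osteopontin, made by macrophages of injured heart) rose by 8.81 (SE 0.37, edgeR adjusted p = 5.42e-14) in S7fl/fl at day 3, from 24.4 ± 7.68 CPM (SD, n = 3) to 10990 ± 2289 (n = 5), and stood at 4761 ± 1469 at day 7 (n = 3). Thbs1, thrombospondin 1, rose by 4.87 (SE 0.29) and 3.52 (SE 0.28) at day 3 and day 7, and Nov (Ccn3) and Spock2 fell by 3.91 (SE 0.40) and 4.03 (SE 0.48) at day 3. Tnc and Cthrc1 were also called higher at day 3 in both genotypes. Over all genes tested 29.9% were called higher and 34.1% lower in S7fl/fl at day 3, and 24.8% and 25.4% at day 7. In MyS7KO the shares were 30.7% and 35.2% at day 3 and 22.2% and 21.8% at day 7. The 4 of 18 called higher at day 3 are thus not above the share of all genes. The same shares apply to each list below.

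Of 11 other small leucine-rich and large proteoglycans tested, 1 was higher and 10 lower in S7fl/fl at day 3 (median -2.17), and 0 and 6 at day 7 (median -1.59). MyS7KO had 1 higher and 8 lower at day 3 (median -1.76) and 3 and 1 at day 7 (median -0.57). The day 3 shares over all genes were 29.9% higher and 34.1% lower in S7fl/fl and 30.7% and 35.2% in MyS7KO. Prelp, a leucine-rich relative of Lum, fell by 3.58 (SE 0.48, edgeR adjusted p = 3.02e-06) and Podn by 3.22 (SE 0.47, edgeR adjusted p = 2.86e-06) in S7fl/fl at day 3, beside falls of Dcn and Lum of 3.58 and 3.16. Vcan, the large proteoglycan versican, rose by 2.59 (SE 0.46, edgeR adjusted p = 8.05e-05) at day 3 and its day 7 change was 0.64 (SE 0.47, edgeR adjusted p = 0.27).

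Of 16 genes of microfibrils and elastic fibres, the structures that Fbn1 forms, 2 were higher and 10 lower in S7fl/fl at day 3 (median -2.26) and 6 and 6 at day 7 (median 0.40). In MyS7KO the counts were 3 and 10 (median -1.68), then 8 and 2 (median 1.04). Emilin2 rose by 1.95 (SE 0.19, edgeR adjusted p = 6.59e-09) and Efemp1, a fibulin family gene, fell by 3.93 (SE 0.51, edgeR adjusted p = 6.09e-07) at day 3 in S7fl/fl. Of 14 genes that crosslink or process collagen, as Lox does, 6 were higher and 5 lower in S7fl/fl at day 3 (median -0.10) and 5 and 1 at day 7 (median 0.35), and in MyS7KO 4 and 3 (median 0.01), then 7 and 2 (median 0.49). The day 3 counts in S7fl/fl are near the shares of all genes called, 29.9% higher and 34.1% lower, and the median is near the -0.06 of all genes. Tgm2, a transglutaminase, rose by 2.27 (SE 0.23, edgeR adjusted p = 2.22e-08), and Plod1, a lysyl hydroxylase, by 0.68 (SE 0.09, edgeR adjusted p = 9.24e-07) at day 3 in S7fl/fl, a time at which Lox had not passed.

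Of 17 receptors for these matrix proteins tested, 6 were higher and 6 lower in S7fl/fl at day 3 (median -0.15) and 6 and 4 at day 7 (median 0.16), and in MyS7KO 5 and 6 (median 0.06), then 6 and 4 (median 0.29). The day 3 counts are near the shares of all genes called in S7fl/fl, 29.9% higher and 34.1% lower. Itgav and Itgb5, the chains of an integrin that binds periostin and vitronectin, rose by 1.59 (SE 0.17) and 0.99 (SE 0.10) at day 3 in S7fl/fl, with edgeR adjusted p of 2.66e-08 and 1.08e-08. Itga8 fell by 2.23 (SE 0.22, edgeR adjusted p = 1.35e-08) and Cd36, a thrombospondin receptor, by 0.86 (SE 0.14, edgeR adjusted p = 1.2e-05). In the PDGF family, the ligands and the other receptors beside Pdgfra, 0 of 6 were higher and 4 lower at day 3 in each genotype (medians -1.76 and -1.41), and 3 and 2 in S7fl/fl and 3 and 1 in MyS7KO at day 7 (medians 0.46 and 0.56). Pdgfrb, the receptor of mural cells and fibroblasts, fell by 2.04 (SE 0.37, edgeR adjusted p = 9.53e-05) in S7fl/fl at day 3 and by 2.16 (SE 0.44, edgeR adjusted p = 0.000485) at day 7, while Pdgfa, a ligand of Pdgfra, rose by 1.21 (SE 0.19, edgeR adjusted p = 2.62e-05) at day 7.

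Among 16 other fibroblast genes, 0 were higher and 12 lower in S7fl/fl at day 3 (median -2.13) and 3 and 10 at day 7 (median -1.43). In MyS7KO 1 and 11 were so at day 3 (median -2.12), then 4 and 4 (median -0.39). The day 3 shares over all genes were 29.9% higher and 34.1% lower in S7fl/fl and 30.7% and 35.2% in MyS7KO. Clec3b fell by 4.98 (SE 0.44, edgeR adjusted p = 8.17e-09) at day 3 in S7fl/fl, and Col1a1 and Col1a2 rose by 2.59 (SE 0.52, edgeR adjusted p = 0.000435) and 2.14 (SE 0.48, edgeR adjusted p = 0.00129) at day 7. Of 11 myofibroblast genes tested, 0 were higher and 7 lower at day 3 in each genotype (medians -2 and -1.56), and 3 and 5 in S7fl/fl and 4 and 4 in MyS7KO at day 7 (medians -0.48 and 0.63). Acta2, smooth muscle actin, which mural cells also express, fell from 423.4 ± 118.4 CPM (SD, n = 3) to 43.0 ± 8.31 (n = 5) and 31.0 ± 24.6 (n = 3), a day 3 log2 change of -3.30 (SE 0.43, edgeR adjusted p = 2.38e-06). Ltbp2, a matrix gene of the myofibroblast list, rose by 2.72 (SE 0.60, edgeR adjusted p = 0.00105) at day 7, when Postn was at its highest.

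Between MyS7KO and S7fl/fl none of the 10 genes passed the threshold at any time. Smad7 RNA was lowered but still read in MyS7KO, at 38.0 ± 15.9 CPM at baseline (SD, n = 3). It was at 14.6 ± 3.98 at day 3 (n = 5) and 23.4 ± 7.66 at day 7 (n = 4). At baseline the 10 log2 differences, MyS7KO minus S7fl/fl, ran from -0.62 (Tnc) to -0.05 (Fn1), all of them at an edgeR adjusted p of 0.999. At day 3 they ran from -0.36 (Fn1) to 0.50 (Postn), with edgeR adjusted p from 0.982 to 0.992, and 6 of 10 were higher in MyS7KO. At day 7 they ran from -0.30 (Fn1) to 0.94 (Lum), with edgeR adjusted p from 0.408 to 0.717, and 9 of 10 were higher in MyS7KO. The genes other than Fn1 tended to move together within groups, so these are not 9 independent results. The share of all genes that were higher was not counted. With edgeR, 0 of the 10 were called at each time, 0 had an unadjusted p under 0.05, and DESeq2 and limma-voom called 0 as well. Over all genes tested 0.0121%, 0.0121% and 0.0181% of genes were called at baseline, day 3 and day 7, and 375, 594 and 2173 had an unadjusted p under 0.05. The 2 genotypes overlapped in CPM in each of the 10 genes at each time, where 6.2%, 0.562% and 8.9% of all genes tested did not overlap.

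The intervals show what these samples allow. At day 7 the difference and its 95% interval on the log2 scale were 0.94 (-0.15 to 2.04) for Lum, 0.93 (-0.08 to 1.93) for Fbn1, 0.74 (-0.48 to 1.96) for Dcn and 0.71 (-0.41 to 1.82) for Pdgfra. They were 0.67 (-0.26 to 1.61) for Postn, 0.67 (-0.24 to 1.59) for Tnc, 0.62 (-0.23 to 1.47) for Sparc, 0.62 (-0.25 to 1.49) for Lox and 0.38 (-0.36 to 1.12) for Cthrc1. Fn1 went the other way, at -0.30 (-0.97 to 0.37). The lowest unadjusted p was 0.0679, for Fbn1. A 2-fold higher level in MyS7KO (1 on the log2 scale) lies inside the interval of each of these genes except Fn1. The median log2 difference, MyS7KO minus S7fl/fl, was 1.24 over 8 mural, 0.87 over 10 endothelial and 0.73 over 12 fibroblast markers, of which 0 were called, and -0.28 over 12 macrophage markers, beside -0.01 over all genes tested. The macrophage marker sums of the 2 genotypes did not overlap at day 7, also without Lyz2 (18640 to 19110 CPM in S7fl/fl and 13050 to 17410 in MyS7KO), while the fibroblast sums did (1084 to 2888 and 1526 to 4232 CPM). Lyz2, the lysozyme M gene, was the only macrophage marker called: it was lower in MyS7KO by a log2 difference of -0.97 (SE 0.13, edgeR adjusted p = 0.00177) at day 7, and was also called at baseline (-0.90) and day 3 (-0.92). LyzM-Cre is carried by MyS7KO only, so for Lyz2 the Cre construct and the loss of Smad7 cannot be told apart. The part of the cell type markers in the day 7 differences of the 10 genes was not tested. The day 7 groups are of opposite sex signal, so genotype and sex cannot be told apart in these values.

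**Figure D5:**
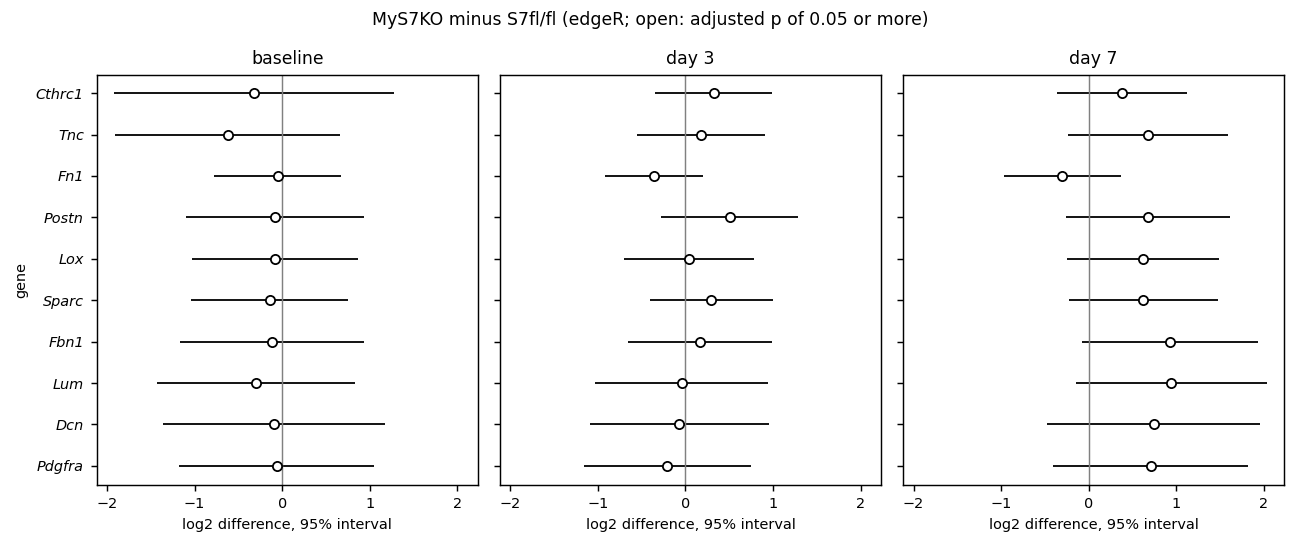
Log2 difference MyS7KO minus S7fl/fl (horizontal axis) of each of the 10 genes at baseline, day 3 and day 7, with 95% intervals; all symbols are open because no edgeR adjusted p was under 0.05. Every interval crosses 0, and 9 of 10 day 7 values lie right of it, Fn1 being the exception. The genes are not independent of each other.

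The change of the genotype difference over time was tested directly. In the tests that include day 7, genotype and sex cannot be told apart, because the day 7 groups are of opposite sex signal. From baseline to day 3 it ran from -0.30 (Fn1) to 0.80 (Tnc), from baseline to day 7 from -0.25 (Fn1) to 1.30 (Tnc), and from day 3 to day 7 from 0.05 (Fn1) to 0.99 (Lum) on the log2 scale. With edgeR 0 of the 10 genes passed in each of these 3 tests, and 0 had an unadjusted p under 0.05. Over all genes 0%, 0% and 0% were called, and 741, 862 and 1726 had an unadjusted p under 0.05. The steps at which MyS7KO had calls that S7fl/fl lacked, such as Sparc and Fbn1 at day 7, are therefore not shown to differ between genotypes: the interaction for day 7 against baseline was 0.76 (-0.47 to 2.00) for Sparc and 1.05 (-0.40 to 2.49) for Fbn1. Each of the 8 lists of related genes also had 0 genes called by genotype at each time and in each of these 3 tests.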

How the data were processed

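Poly(A) RNA of cardiac cells without Ly6G and with CD11b was measured in 23 libraries of 6 groups of genotype and time, at 15.5 to 23.9 M counts each. The authors deposited whole-number read counts for each gene, used unchanged, and FPKM, which was checked to equal count over gene length times 1 constant per library (genes of at least 100 counts, tolerance 0.1%). HTSeq 0.6.1, Cufflinks 2.1.1, TopHat2 2.0.9, mm10 and GRCm38.p6 are listed in the submitters' processing notes with no role for each, and strandedness is not given in the sources used here.

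The test was edgeR's quasi-likelihood F-test (edgeR 4.0.16 under R 4.3.3, robust, with limma 3.58.1) after TMM scaling and filterByExpr over the 6 groups, 1 coefficient for each group, with two-sided p-values adjusted by Benjamini-Hochberg over all 16545 genes tested. Standard errors are the log2 change over the square root of F, and 95% intervals use edgeR's degrees of freedom. Similarity is Pearson r of log2 CPM (prior count 2) over tested genes of average log2 CPM of at least 1. Scripts were tested on simulated data.

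The 10 genes, 8 lists of 113 related genes and 12 marker lists were chosen with earlier results of these data known. From each related list the rule named the 2 called genes of lowest p in each direction in S7fl/fl at day 3 or day 7 against baseline, and among similar genes the 3 of highest r, predicted genes left out; a subset is printed. Other settings were limma-voom with quality weights, DESeq2 1.42.0, RLE scaling, tests without the low-count filter, only the groups compared, limma on log2(FPKM + 1) and log2(FPKM + 0.1), the former also unfiltered, a replicate block, sex as a covariate, leaving out libraries of mixed sex signal (over 2%), and leaving out each library. No 2 libraries agreed within counting error: over the 35 pairs within groups chi-square divided by its degrees of freedom was 9.34 to 56.57.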

Additional observations from a re-analysis of the deposited data

Results flagged for a closer look

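In groups of 4 or more libraries, each of the 10 genes was checked for a library far from the others by Dixon's criterion at 95%. Of 30 sets checked 6 held one, and chance gives about 1 in 20. Of these 5 were MyS7KO day 3 replicate 1, which stood above the rest of its group: Postn at 119.8 CPM with the others at 62.5 to 70.2, Fbn1 at 110.6 with the others at 42.3 to 50.5, and Dcn at 66.2 with the others at 15.3 to 26.2. In the same library Lox was at 31.6 CPM with the others at 14.8 to 18.2, and Pdgfra at 10.9 with the others at 2.58 to 4.17. These genes are not independent of each other, and the library also had the highest sum of other fibroblast markers in its group, 1077 CPM with the others at 492.7 to 643.5. Without it the MyS7KO rise of Postn at day 3 was no longer called (edgeR adjusted p = 0.0661). Fn1 in MyS7KO day 7 replicate 5 was at 1976 CPM, below the others at 2536 to 2617.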

How the results depend on the processing

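The rises of Fn1, Tnc and Cthrc1 and the falls of Dcn, Lum and Pdgfra at day 3, and the rises of Postn, Cthrc1, Lox, Fn1 and Tnc at day 7, kept direction and call in both genotypes under every alternative run. Genotype and interaction tests called 0 of the 10 genes in every alternative. In S7fl/fl between day 3 and day 7 the count of called genes was 7, and 4 with no low-count filter, with only the groups compared and with limma on log2(FPKM + 1) without a filter; with 1 library left out it was 4 to 6. In MyS7KO at day 7 against baseline it was 9, and 5 with no low-count filter. With 1 library left out it was 5 to 7. Sex as a covariate gave 5 in S7fl/fl between day 3 and day 7, and 7 in MyS7KO at day 7 against baseline. The cause was not tested.

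Replicate numbers are not stated to pair the samples. Same-numbered libraries correlated at -0.30 to 0.225 after removal of group means, and 4 of 10 correlated best with their own number. These pairs are too few to settle whether the numbers pair samples. With a replicate block 7, 8 and 7 genes were called in S7fl/fl (day 3 and day 7 against baseline, day 7 against day 3) in place of 6, 7 and 7, and 7, 8 and 9 in MyS7KO in place of 7, 9 and 9.

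Values that changed sign were all uncalled. With limma-voom the MyS7KO change of Sparc at day 3 was -0.0863 and that of Lum at day 7 -0.10, and the baseline genotype differences were 0.000549 for Sparc, 0.199 for Fn1, 0.0757 for Fbn1, 0.131 for Lox, 0.115 for Pdgfra and 0.02 for Dcn, with the day 3 difference of Lox at -0.0238. Without the libraries of mixed sex signal the S7fl/fl day 3 change of Lox was 0.0408, and the day 3 genotype differences of Tnc and Lox were -0.0835 and -0.167. With sex as a covariate those of Dcn and Lum were 0.0482 and 0.0177. With a replicate block the MyS7KO day 3 change of Lox was 0.177.

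With 1 library left out the following also crossed 0. Genotype differences at baseline ran from -0.247 to 0.121 for Postn, -0.35 to 0.0932 for Sparc, -0.282 to 0.26 for Fn1, -0.383 to 0.195 for Fbn1, -0.276 to 0.16 for Lox, -0.352 to 0.225 for Pdgfra and -0.257 to 0.113 for Dcn. At day 3 they ran from -0.0457 to 0.411 for Tnc, -0.173 to 0.386 for Fbn1, -0.226 to 0.234 for Lox, -0.715 to 0.142 for Pdgfra, -0.649 to 0.26 for Dcn and -0.477 to 0.248 for Lum. In S7fl/fl the changes from baseline ran from -0.376 to 0.0408 for Lox at day 3, and from -0.0845 to 0.646 for Sparc and -0.107 to 0.503 for Fbn1 at day 7. In MyS7KO they ran from -0.00271 to 0.468 for Sparc and -0.318 to 0.159 for Lox at day 3, and from -0.217 to 0.549 for Lum at day 7.

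Groups of 3 to 5 libraries limit what can be told, most of all by genotype at day 7, where the sexes do not overlap. Cthrc1 at baseline rests on 3 to 10 counts per library, which the filter on low counts kept.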
